A study of Mus musculus with 12 samples.

Results

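Galp, Rln3, Npff and Gnrh1 are neuropeptide genes with roles in appetite or reproduction, and they make up 4 of the 5764 genes in the deposited table. They were chosen by name with their levels and their SENS against NEO values in these libraries already known, so those values are given as a description with no test. RNA bound to tagged ribosomes was pulled down with an anti-HA antibody from hypothalamic tissue enriched for the arcuate nucleus of POMCRiboTag mice. All mice had a 16 h fast and a 1 h habituation to the test room, and the exposure took place around zeitgeber time 6 h. The 6 SENS libraries came from mice shown caged chow for 10 min, which could be seen and smelled and not eaten. The 6 NEO libraries came from mice shown a caged wooden object for 10 min. Mice were housed in pairs or triplets, and the sources used here give neither age nor sex. Nothing in the labels ties a library to a single mouse, so the spread between libraries may be partly technical.

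A RiboTag mouse carries a ribosomal protein that gains an HA tag in cells where Cre recombinase has acted, so that antibody beads recover the RNA on the ribosomes of those cells. With a Pomc driver the tag can also mark cells that made Pomc only during development and later took on another peptide identity. Whether the driver used here has that property is not given in the sources used here, and no untagged or input library was among the 12. Galp encodes galanin-like peptide, a relative of galanin made by arcuate neurons that respond to leptin and linked to feeding and to the reproductive axis. Rln3 encodes relaxin 3, a peptide made mainly by neurons of the nucleus incertus in the hindbrain that signals through RXFP3 and promotes feeding in rats. Npff encodes the precursor of neuropeptide FF, an RFamide peptide that modulates opioid signalling. Gnrh1 encodes gonadotropin-releasing hormone, whose neurons lie mostly in the preoptic area and send axons to the median eminence beside the arcuate nucleus, where the peptide enters the portal blood to the pituitary.

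Values are CPM, read counts scaled to a common total that covers only the genes listed in the table, so a level is a share of those reads. Most listed genes were scarce, and the median gene had 9 reads when the 12 libraries were added up. The libraries held 8619 to 18299 such reads in SENS and 6901 to 11139 in NEO, so that 1 read was worth 54.6 to 116 CPM in SENS and 89.8 to 145 CPM in NEO. A value of 0 in 1 library allows up to 3 reads, which was 164 to 348 CPM in SENS and 269 to 435 CPM in NEO, for counting error only. SENS 6 combined the most reads with the fewest genes above 0 in its group, 1589 against 2024 to 2402 in the other SENS libraries. None of the 6 listed POMC neuron markers is in the table used here, so the labelled cell type could not be checked. The summed level of the 4 leukocyte markers was 1090 to 4236 CPM in SENS and 391 to 2066 CPM in NEO, with Ms4a1 at 0 in every library. The summed level of 6 of 7 anterior pituitary markers in the table was 64.1 to 9796 CPM in SENS and 380 to 2797 CPM in NEO. Of the blood markers, Hba-a1 and Slc4a1 had no read in SENS and 1 and 2 reads in NEO. The part of these cells in the results was not tested.

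Galp was lower on average in SENS, at 434 ± 536 CPM against 1229 ± 678 CPM in NEO (SD, n = 6 each), 0.353 times the NEO mean. The 6 SENS libraries held 4, 9, 2, 0, 17 and 0 reads of it (SENS 1 to 6), against 12, 6, 15, 6, 14 and 6 reads in NEO 1 to 6. In CPM the SENS libraries ranged from 0 to 1412 with a median of 307, and the NEO libraries from 539 to 2098 with a median of 974. All 6 NEO libraries were above 0, against 4 of 6 SENS libraries, and the groups overlapped because SENS 5 and SENS 2 lay above the lowest NEO library. SENS 5 alone held 53.1% of the SENS reads, and without it the SENS mean was 238 ± 268 CPM (SD, n = 5), 0.194 times that of NEO. This was the lowest ratio with 1 library left out, and the highest was 0.424, without SENS 4 or without SENS 6. The 0 reads of SENS 6 among 18299 allow up to 164 CPM, and those of SENS 4 up to 279 CPM. Both limits lie below the value of the lowest NEO library, NEO 2, at 539 CPM. That value rests on 6 reads, with a Wilson interval of 247 to 1175 CPM for counting error only. The SENS 6 limit lies below this interval. The SENS 4 limit lies inside it, so a difference between SENS 4 and NEO 2 was not resolved at this depth. Fewer cells with Galp and less Galp RNA per cell cannot be told apart in such bulk libraries.

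The log2 fold change of Galp was -4.12 (SE 1.38), from limma on log2(CPM + 1). This scale gives far more weight to the libraries at 0 than the ratio of means does. Pooled over the group, Galp had 32 of 78624 reads in SENS and 59 of 51054 reads in NEO, a ratio of 0.352 (exact 95% interval 0.222 to 0.551, counting error only). Galp spans chromosome 7, positions 6197090 to 6216137 (GRCm38.p6), and overlaps no other annotated gene. All reads of the 4 genes came out whole at a tolerance of 0.005 reads, so none carried the fractional reads seen elsewhere in the table.

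Rln3 had the same direction, with 257 ± 256 CPM in SENS and 958 ± 341 CPM in NEO (SD, n = 6 each), 0.269 times the NEO mean. SENS 1 to 6 held 1, 2, 2, 7, 6 and 0 reads, and NEO 1 to 6 held 11, 4, 10, 8, 6 and 8 reads. The SENS range was 0 to 652 CPM (median 139), and the NEO range 359 to 1398 CPM (median 1024). All NEO libraries but NEO 2 lay above all SENS libraries, and NEO 2 lay below SENS 4 and SENS 5. The log2 fold change was -3.22 (SE 1.24), and -1.91 without SENS 6, the library at 0. The pooled ratio was 0.249 (18 against 47 reads, exact 95% interval 0.136 to 0.436, counting error only). Rln3 lies on chromosome 8 (84043067 to 84044979), 466 bases from Il27ra, an interleukin receptor gene with 12 reads in 2 SENS libraries and 23 reads in 3 NEO libraries. Il27ra was at 0 in NEO 2, NEO 3 and NEO 4, where Rln3 had 4, 10 and 8 reads.

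**Figure D1:**
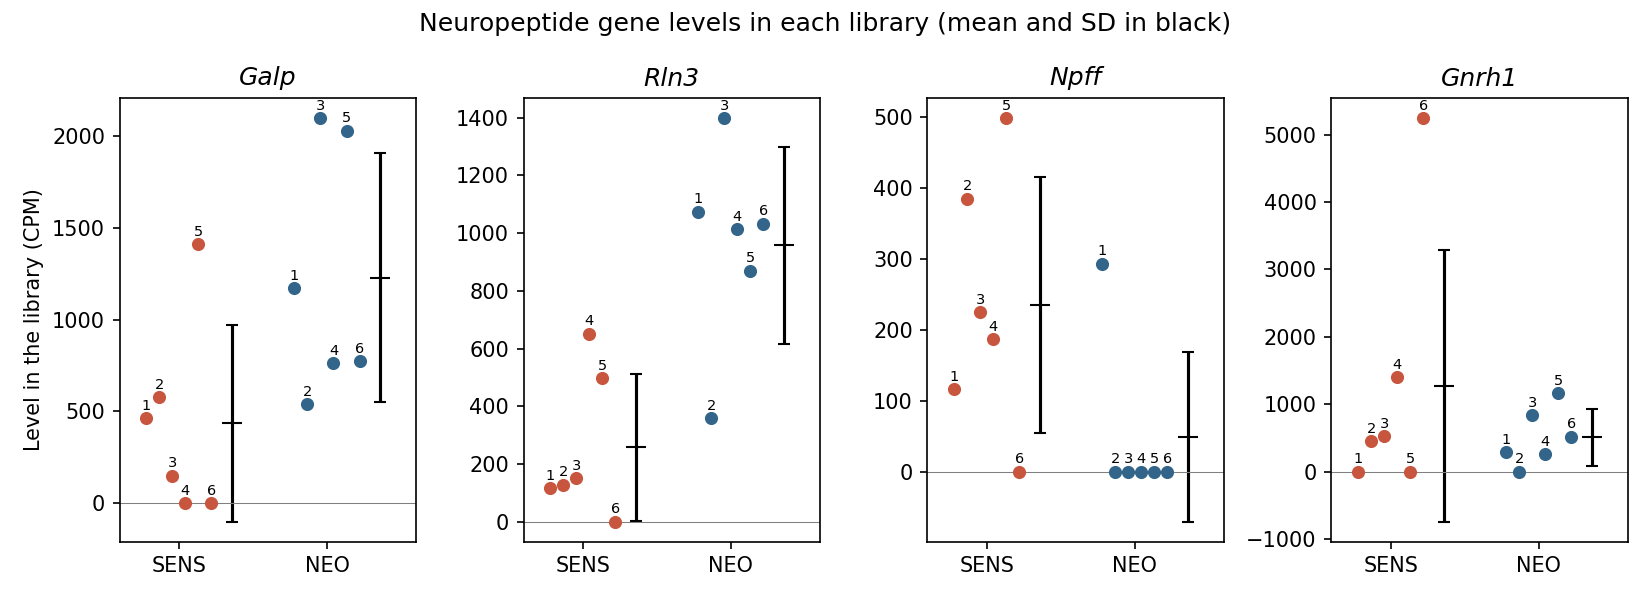
Level of each gene in CPM (vertical axis, a separate scale for each gene) in the 6 SENS and 6 NEO libraries, with the replicate number at each point and the mean and SD in black. Galp and Rln3 are above 0 in all 6 NEO libraries, Npff is above 0 in 5 SENS libraries and 1 NEO library, and SENS 6 stands alone at 5246 CPM of Gnrh1.

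As a description, Galp and Rln3 had the highest correlation of the 6 pairs across the 12 libraries, with Spearman's rho = 0.71 and Pearson's r = 0.64 on log2(CPM + 1). Within the groups rho was 0.12 over the 6 SENS libraries and 0.66 over the 6 NEO libraries. Both were above 0 in 10 libraries and both at 0 in SENS 6. The other 5 pairs had rho from -0.29 to 0.05 over all libraries, and Galp with Gnrh1 had -0.88 within SENS and 0.89 within NEO. SENS 4 had no read of Galp and 7 of Rln3. Of the 5764 genes in the table, 426 were above 0 in all 6 NEO libraries and 443 in all 6 SENS libraries. Of the 426, 194 were above 0 in 5 SENS libraries or fewer, as Rln3 was, and 81 in 4 or fewer, as Galp was.

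**Figure D2:**
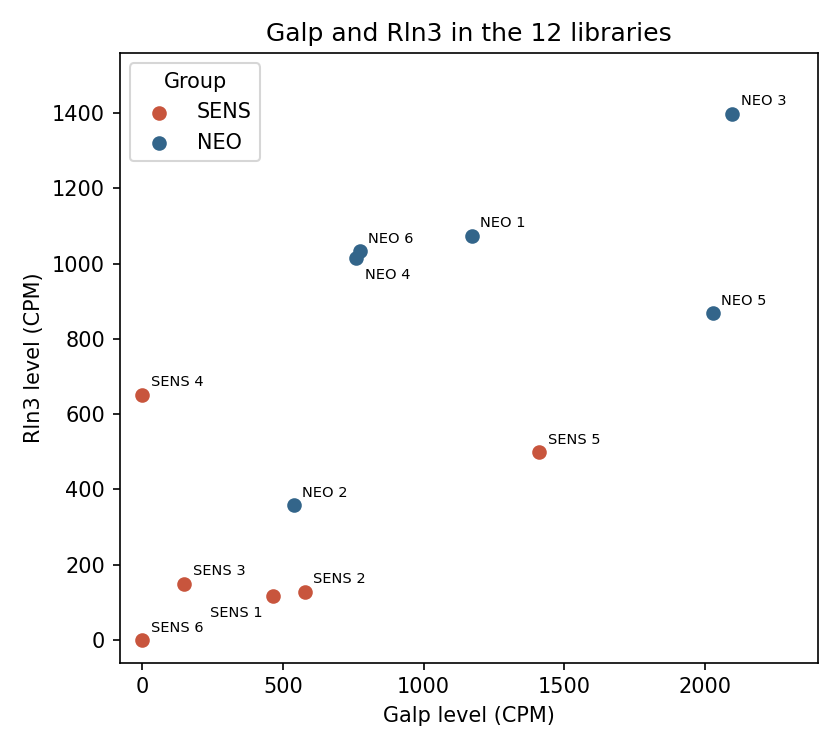
Galp level (horizontal axis, CPM) against Rln3 level (vertical axis, CPM) in each of the 12 libraries, coloured by group. NEO 3 is highest in both genes at 2098 and 1398 CPM, and SENS 6 is at 0 in both.

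The bases before the start sites of Galp and Rln3 are shown because these are the genes whose mean was lower in SENS and whose start is in the promoter table from RefSeq (GRCm38.p6), which held 2 of the 4 genes. The windows are the 250 bases before the start, chr7:6196840-6197089 on the plus strand for Galp and chr8:84044980-84045229 on the minus strand for Rln3. Capitals mark a match on either strand to the letters TATAAA, known from core promoters, to the letters CCAAT, known from promoters bound by NF-Y, or to the letters TGACGTCA, the cAMP response element.
Galp: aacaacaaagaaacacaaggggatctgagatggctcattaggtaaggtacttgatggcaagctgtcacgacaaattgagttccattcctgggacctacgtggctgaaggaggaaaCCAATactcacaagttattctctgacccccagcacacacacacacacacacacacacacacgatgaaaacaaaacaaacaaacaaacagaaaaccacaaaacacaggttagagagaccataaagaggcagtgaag
Rln3: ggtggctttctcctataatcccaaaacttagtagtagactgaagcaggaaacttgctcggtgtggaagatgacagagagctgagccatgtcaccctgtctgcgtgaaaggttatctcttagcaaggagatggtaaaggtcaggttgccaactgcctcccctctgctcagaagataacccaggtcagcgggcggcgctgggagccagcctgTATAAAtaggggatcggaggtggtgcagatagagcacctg
The Rln3 window held TATAAA starting 40 bases before the start site, a sequence found in 12.4% of 32851 windows of this length. The Galp window held CCAAT starting 135 bases before the start site, found in 33.8% of windows, and a run of CA repeats 28 bases long. Neither window held TGACGTCA, which is in 1.55% of windows. No motif was shared by both windows, and a match describes letters and not a bound factor.

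Npff was the rarest of the 4 genes in reads, with 18 in SENS and 3 in NEO. SENS 1 to 6 held 1, 6, 3, 2, 6 and 0 reads, while in NEO all 3 reads were in NEO 1. The SENS libraries were deeper, with a mean of 13104 against 8509 reads in NEO. How many genes of the table have a like split was not counted. The mean was 235 ± 181 CPM in SENS (0 to 498, median 206) and 48.9 ± 120 CPM in NEO (0 to 293, median 0; SD, n = 6 each). The groups overlapped, since NEO 1 lay above 4 SENS libraries. The pooled ratio was 3.90 with an exact 95% interval of 1.14 to 20.6, for counting error only. The log2 fold change was 5.27 (SE 2.73) and depended on the 5 NEO libraries at 0. The 5 NEO libraries at 0 allowed up to 269 CPM (NEO 2) to 435 CPM (NEO 5), above the mean in SENS, so a lower level in those single libraries was not detectable at this depth. Npff lies on chromosome 15 (102523839 to 102524621), 162 bases from Tarbp2, which is not analysed here.

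Gnrh1 gave a difference that rested on 1 library. Its mean was 1269 ± 2014 CPM in SENS and 510 ± 425 CPM in NEO (SD, n = 6 each), 2.49 times the NEO mean. SENS 1 to 6 held 0, 7, 7, 15, 0 and 96 reads, and NEO 1 to 6 held 3, 0, 6, 2, 8 and 4 reads. SENS 6 thus held 76.8% of the SENS reads, at 5246 CPM (95% Wilson interval 4298 to 6402). Without SENS 6 the mean was 474 ± 571 CPM in SENS (n = 5), against 510 CPM in NEO. The pooled ratio was 3.53 with all libraries (125 against 23 reads, exact 95% interval 2.25 to 5.77) and 1.07 without SENS 6 (29 against 23 reads, 0.596 to 1.93), for counting error only.

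The log2 fold change of Gnrh1 was -0.74 (SE 1.84), opposite in sign to the difference in mean CPM, with SENS 1 and SENS 5 at 0 in one group and NEO 2 at 0 in the other. Without SENS 1 or without SENS 5 it was 0.61, without SENS 6 it was -1.86, and without NEO 2 it was -2.24. The SENS range of 0 to 5246 CPM (median 487) enclosed the NEO range of 0 to 1159 CPM (median 405). Gnrh1 lies on chromosome 14 (67745181 to 67749440) and shares 221 bases with the noncoding gene Gm52126. The use of strand in counting is not given in the sources used here, so reads in the shared bases cannot be assigned.

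SENS 6 was the library in which the 4 genes differed most from each other, with 96 reads of Gnrh1 and none of Galp, Rln3 or Npff. Each of the other 11 libraries held reads of 2 to 4 of the genes, 6 to 31 reads in all. Gnrh1 was not the only scarce gene with most of its SENS reads in SENS 6. All 76 SENS reads of Lep and 49 of the 73 SENS reads of Tex11 were there, while Vipr1 and Glp2r had no read there. The next highest Gnrh1 levels were 1397 CPM in SENS 4 and 1159 CPM in NEO 5. SENS 4 also had the highest summed level of anterior pituitary markers, 9796 CPM, while SENS 6 had 1213 CPM of these markers and 1585 CPM of leukocyte markers. The part of these in the Gnrh1 level was not tested.

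Library numbers in the labels fall into 3 ranges, each with as many SENS as NEO libraries. The genes were chosen with these values known, so agreement between ranges is a description and adds no independent support. Galp had a lower mean in SENS in every range. It was 464 against 1173 CPM for numbers 1046 to 1050 (1 library per group), where the Wilson intervals overlapped (180 to 1193 and 671 to 2049 CPM). The means were 242 against 1132 CPM for 1062 to 1074 (3 per group) and 706 against 1402 CPM for 1103 to 1116 (2 per group). Rln3 was also lower in SENS in each, at 116 against 1075 CPM, 310.0 against 924 CPM and 249 against 951 CPM in the same order. Npff had 116 CPM in SENS 1 and 293 CPM in NEO 1 in the first range, from 1 and 3 reads. Their Wilson intervals overlapped (20.5 to 657 and 99.7 to 862 CPM), so a difference there was not resolved. In the other ranges the Npff mean was higher in SENS (265 against 0 CPM, and 249 against 0 CPM). Gnrh1 had 0 reads in SENS 1 and 3 reads in NEO 1 in the first range (0 against 293 CPM). As 0 reads in SENS 1 allow up to 348 CPM, a difference there was not detectable at this depth. In the other ranges the Gnrh1 mean was higher in SENS (790.2 against 364 CPM, and 2623 against 838 CPM), in the last range through SENS 6 alone. What the numbers stand for is not given in the labels.

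**Figure D3:**
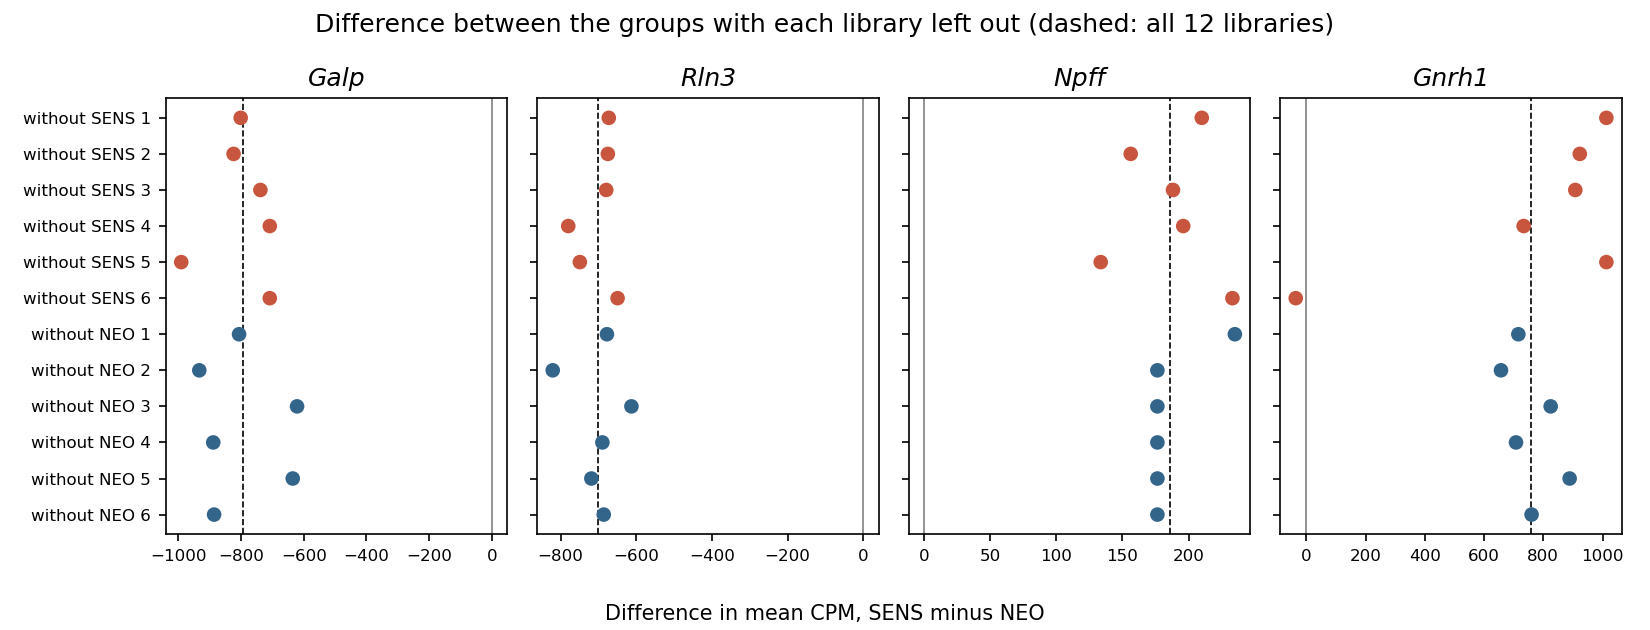
Difference in mean CPM, SENS minus NEO (horizontal axis), with each library left out in turn (vertical axis, coloured by the group of the library left out); the dashed line is the value from all 12 libraries. Galp and Rln3 stay below 0 and Npff above 0 in every case, and Gnrh1 crosses 0, at -36.1 CPM, without SENS 6.

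Over all genes tested, 0 of 5141 passed limma's test with an adjusted p under 0.05 (0%, in either direction), so 0 of these 4 genes did. An unadjusted p under 0.05 was found for 189 genes, of which 94 were higher and 95 lower in SENS. That is fewer than the 1 in 20 of genes tested that would pass this threshold if no gene differed. The smallest adjusted p in the table was 0.728, the median log2 fold change 0.39 and the median SE 1.82.

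The genes that act with these peptides were mostly outside the table. Of the galanin family and its receptors, without Galp, 1 of 5 listed genes was measured: Spx, which encodes the galanin relative spexin, had 104 ± 166 CPM in SENS and 207 ± 330 CPM in NEO (SD, n = 6 each). Of the relaxin family and its receptors, without Rln3, 2 of 8 were measured. Insl5, a gut hormone that signals through RXFP4, had 2 reads in 1 SENS library and 7 reads in 3 NEO libraries. Insl3, a testis hormone that signals through RXFP2, had 3 reads in 2 SENS libraries and none in NEO. Of the other RFamide peptides and receptors none of 9 was in the table used, and receptors of relaxin 3, neuropeptide FF and galanin-like peptide are not analysed here.

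Of the GnRH axis, without Gnrh1, 3 of 10 listed genes were measured, all of them on the pituitary side. Gnrhr, the receptor of GnRH on gonadotropes, had no read in SENS and 10 reads in NEO, all in NEO 2, where Gnrh1 was at 0. Lhb, the beta subunit of luteinizing hormone, was above 0 in all libraries, with 572 ± 370 CPM in SENS and 395 ± 285 CPM in NEO (SD, n = 6 each), and SENS 6 held 21 of its 46 SENS reads. Fshb, the beta subunit of follicle-stimulating hormone, had 10 reads in SENS 3 and 10 reads in NEO 3 and none elsewhere. None of these 6 genes of the galanin, relaxin and GnRH lists passed the test (adjusted p from limma between 0.745 and 1.00).

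Of 71 other neuropeptide and peptide hormone precursors listed, 22 were in the table and 21 could be tested. None passed, and their median log2 fold change was 0.32, beside 0.39 for all genes; 12 lay above 0 and 9 below, and the median was -0.12 to 0.86 with each library left out in turn. With only genes of a mean of at least 100 CPM, the median of these precursors was -1.04, beside 0.05 for all genes. This filter leaves out most of the 21, so that median rests on few genes and does not describe the list. Of the 4 with the highest mean level, Nmu, neuromedin U, which reduces feeding, had 906 ± 740.3 CPM in SENS and 905 ± 1030 CPM in NEO. Pyy, the gut satiety peptide YY, had 215 ± 197 CPM in SENS and 949 ± 895 CPM in NEO. Uts2, the vasoactive peptide urotensin 2, had 228 ± 224 and 649.7 ± 731 CPM in SENS and NEO (SD, n = 6 each). Lep, the fat hormone leptin, lay almost wholly in SENS 6, with 76 reads there, 4 in NEO 6 and none elsewhere.

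Peptide receptors were tested for 15 of 84 listed genes, and none passed (median log2 fold change -0.25, 7 above 0 and 8 below; median -0.85 to 1.09 with each library left out in turn). Mc5r, a melanocortin receptor that binds α-MSH, had 1247 ± 824 CPM in SENS, where 5 libraries were above 0, and 119 ± 188 CPM in NEO, where 2 were (limma adjusted p = 0.745). Gipr, the receptor of the incretin GIP, was above 0 in all 12 libraries, with 630.3 ± 423 CPM in SENS and 1075 ± 561 CPM in NEO. Glp2r had 332 ± 437 and 1191 ± 1285 CPM, and Vipr1, a receptor of vasoactive intestinal peptide, 528 ± 591 and 982 ± 1756 CPM in SENS and NEO (SD, n = 6 each). Avpr1b, a vasopressin receptor named after its values were seen, had 74 reads in 3 SENS libraries, 49 of them in SENS 6, and no read in NEO. It and Mc5r were the receptors with an unadjusted p under 0.05. Npy4r, a receptor of pancreatic polypeptide also named after its values were seen, had 7 reads in 3 SENS libraries and 52 reads in 4 NEO libraries (117 ± 143 CPM in SENS and 970.2 ± 1228 CPM in NEO). Of 18 processing and granule genes the table held Cpz, a carboxypeptidase, with 6 reads in SENS 3 and none elsewhere.

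**Figure D4:**
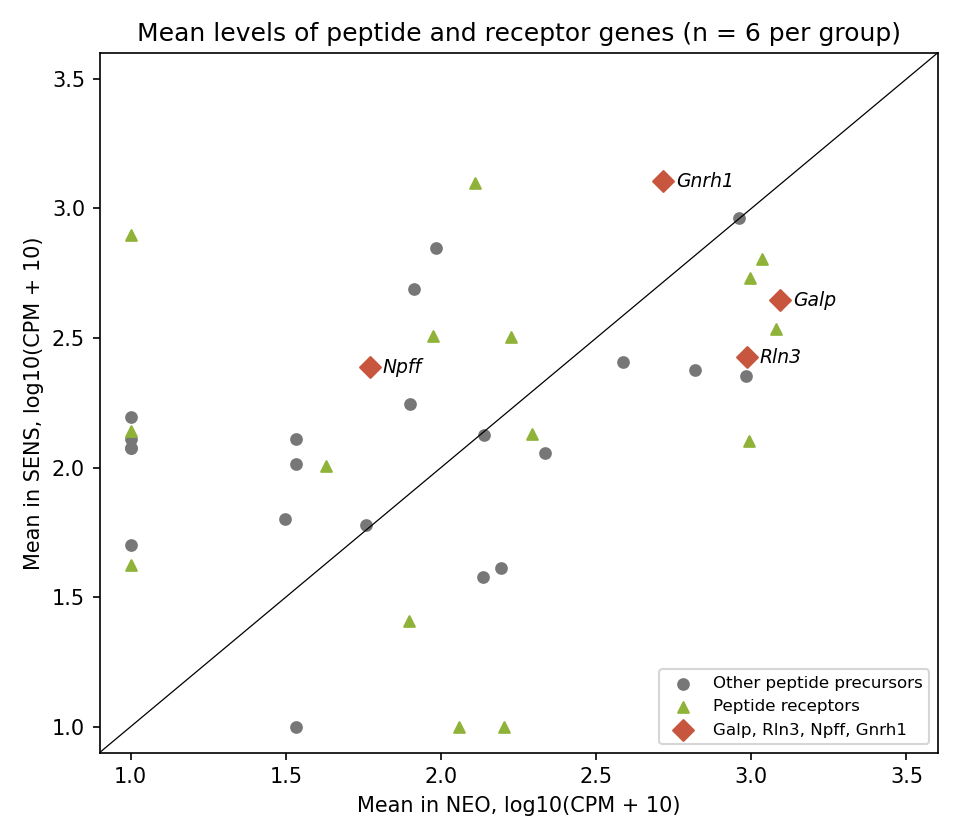
Mean level in NEO (horizontal axis) against mean level in SENS (vertical axis), both as log10(CPM + 10) with n = 6 libraries per group, for the 4 genes, other peptide precursors and peptide receptors in the table; the line marks equal levels. Galp and Rln3 lie below the line among other genes of similar level such as Pyy and Glp2r, and Npff and Gnrh1 lie above it.

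Genes with the most similar pattern over the 12 libraries were sought among 1324 genes above 0 in at least 6 libraries, by Spearman's rho as a description. The libraries share depth and group in all of these genes. Closest to Galp were Pspn, the neurotrophic factor persephin (rho 0.82, 4 reads in SENS and 15 in NEO), Ripply3 (0.80) and Cox20, an assembly factor of cytochrome oxidase (0.80). Closest to Rln3 were the vomeronasal receptor gene Vmn2r31 (0.93), Nutm1 (0.91, 16 reads in SENS and 54 in NEO) and Tgm4, a prostate transglutaminase (0.88). Vmn2r31 carried fractional reads and is uncertain. Closest to Npff were AI182371 (0.92), the guanylate cyclase gene Gucy2g (0.83) and the small nucleolar RNA gene Snora43 (0.81). Closest to Gnrh1 were Etaa1os (0.83), Cort, which encodes the somatostatin relative cortistatin (0.81, 44 reads in SENS, 26 of them in SENS 6, and 3 in NEO), and Tex11, a meiotic gene (0.81).

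Levels were not ordered between the 4 genes, because CPM is not scaled to transcript length and no transcript lengths were used here.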

How the data were processed

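The authors deposited 1 table of CPM values holding 5764 genes in 12 columns, 1 per library; every column was used. Per the submitters' processing notes, the tools were FastQC, HISAT2, featureCounts and edgeR and the builds mm10 and GRCm38, with no versions or roles. Per the labels' protocols, cDNA was made from 0.5 ng of RNA with RNA integrity numbers above 8. How genes were filtered, whether strand was used and how reads with several matches were handled is not given in the sources used here. Columns summed to between 999936 and 1000000 CPM. The most frequent value above 0 in a column was taken as 1 read; 81.2% of values above 0 were then whole reads (tolerance 0.005 reads), too few for a count model.

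SENS was compared with NEO over the whole table with limma 3.58.1 in R 4.3.3 on log2(CPM + 1), with a variance trend, for genes averaging 1 CPM or more; tests were two-sided and called at a Benjamini-Hochberg adjusted p under 0.05. The code of the fit was run on simulated data, and recovery was required only at far more reads per gene and a low set spread. That run does not show how many changed genes the fit finds at the depth of these libraries. The 4 genes, the gene lists and the markers were chosen with earlier results of these data known. Besides the 4 genes, the genes named were all measured ones of the 4 related lists, the 4 with the highest mean CPM of each other list, the 3 most alike in pattern to each of the 4 genes, leaving out predicted symbols, and direct neighbours; Avpr1b and Npy4r fall outside this rule. Python 3.11.15, SciPy 1.17.1 and Matplotlib 3.10.9 were used for the rest. Gene positions come from RefSeq (GRCm38.p6), which held 5728 of the symbols. The labels do not say whether the replicate numbers pair the libraries, and the main fit did not pair them. Alternatives were 2 other pseudocounts, filters, quantile normalization, no variance trend, blocks, pooled reads and each library left out.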

Additional observations from a re-analysis of the deposited data

Results flagged for a closer look

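Among the 4 genes, the gap between 1 library and the nearest other of its group was large beside the range of the group (over Dixon's 95% critical value) in 2 of 8 sets of values: Gnrh1 at 5246 CPM in SENS 6, and Npff at 293 CPM in NEO 1, where the other NEO libraries were at 0. These values were known when the genes were chosen, so this is a description. The 3 reads of Npff lie below what 0 reads allow in NEO 3 to 6 (380 to 435 CPM), so a difference from those libraries was not detectable at this depth. The NEO 2 limit of 269 CPM lies inside the Wilson interval of NEO 1 (99.7 to 862 CPM), so that difference was not resolved either. Over all 32 genes named, 20 of 61 sets were marked in this way, while chance marks about 1 in 20; sparse values with many zeros meet the rule readily. The peptide and receptor genes marked were Lep (4153 CPM in SENS 6 and 516 CPM in NEO 6), Insl5 (166 CPM in SENS 5), Cpz (449.8 CPM in SENS 3), Fshb (749.7 CPM in SENS 3 and 1398 CPM in NEO 3), Spx (839 CPM in NEO 3), Gnrhr (898 CPM in NEO 2), Uts2 (2029 CPM in NEO 4) and Vipr1 (4519 CPM in NEO 6). Among genes alike in pattern or adjacent, the libraries marked were AI182371 (1412 CPM in SENS 5 and 586 CPM in NEO 1), Pspn (249 CPM in SENS 5), Nutm1 (931 CPM in SENS 4), Tgm4 (372 CPM in SENS 4), Etaa1os (2421 CPM in SENS 4), Cox20 (1449 CPM in NEO 5) and Il27ra (2029 CPM in NEO 5).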

How the results depend on the processing

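No setting tried called any gene in the whole table or in the lists of other precursors and receptors. The number of genes at an unadjusted p under 0.05 ranged from 132 (mean of at least 100 CPM) to 249 (no variance trend), and the all-gene median of log2 fold changes from 0.04 (no filter) to 0.72 (without NEO 2). The log2 fold change stayed below 0 for Galp (-5.02 to -2.93 with each library left out) and Rln3 (-3.78 to -1.91), and above 0 for Npff (4.80 to 6.63). It shrank with a pseudocount of 100 CPM, to -1.83 for Galp, -1.80 for Rln3 and 1.20 for Npff, since this pseudocount gives less weight to values at 0. Gnrh1 ranged from -2.24 to 0.61 with each library left out. Its sign turned to 0.61 without SENS 1 and to the same value without SENS 5, to 0.24 with a pseudocount of 100 CPM, and to 1.82 for pooled reads. The difference in mean CPM of Gnrh1 was 759 with all libraries, lay between -36.1 and 1013 with each left out, and was below 0 without SENS 6. With 1 library of each group per number, the replicate block cannot move a log2 fold change. The value was -4.12 for Galp, -3.22 for Rln3, 5.27 for Npff and -0.74 for Gnrh1. With this block the SE was 1.47, 1.27, 2.33 and 2.22 in the same order, and 0 genes were called. Same-numbered libraries deviated with correlations of -0.032 to 0.082, and 2 of 12 libraries, SENS 2 and NEO 2, correlated best with their own number. At so few reads per gene, these correlations cannot decide whether the numbers pair the libraries. By Pearson's r, the genes closest in pattern shared 0 of 3 for Galp, 1 for Rln3, 2 for Npff and 1 for Gnrh1. With 1 read worth 54.6 to 145 CPM, values of 0 or a few reads limit every level given here.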
